A study of Mus musculus with 6 samples.

Results

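Imprinted genes are expressed mainly from the copy inherited from a single parent. They were examined here in the H3K27me3 maps of mouse granulosa cells, the steroid-producing cells that surround the oocyte. The set holds 43 genes in 15 chromosomal regions, chosen by name as known imprinted genes, out of 26180 mouse genes with a curated RefSeq transcript. The choice was made with earlier results of these data known, so the shares given below are descriptions of a chosen set. All 43 matched a RefSeq symbol. Of these, 14 were found in at least 1 of the 8 deposited gene lists and 29 in none. Of all 26180 genes, 3767 were in at least 1 of these lists.

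H3K27me3, trimethylation of lysine 27 on histone H3, was mapped by chromatin immunoprecipitation followed by sequencing (ChIP-seq) in 6 samples. All came from wild type C57BL/6J mice of 8 to 9 weeks. Granulosa cells of several mice were pooled and plated, and 3 dishes received no agent (control) while 3 dishes received 25 nM dihydrotestosterone (DHT, an androgen that cannot be converted to estrogen) for 24 h. The authors deposited 1 peak list and 1 set of gene lists per group, so the dishes carry no values of their own. The depth of each sample is unknown, no error between replicates can be given, and no test of DHT against control was possible. The identity of the cells was not checked against marker genes, as the lists hold no expression values.

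H3K27me3 is written by the methyltransferase EZH2 and is associated with silent genes. At many imprinted genes the parental copies are told apart by DNA methylation at an imprinting control region, and in some regions a long non-coding RNA transcribed from 1 parental copy recruits Polycomb proteins to the genes around it. At a smaller group of genes, maternal H3K27me3 itself carries the imprint in the early embryo. In the ovary, imprints of the oocyte are set during its growth, whereas granulosa cells are somatic and carry the imprints inherited at fertilization.

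The question was which imprinted genes carried a called H3K27me3 peak in control cells and after DHT. The control gene body list held 12 of the 43 imprinted genes (27.9%), where 12.0% of all RefSeq genes were listed. These were Meg3, Rtl1, Airn, Slc22a2, Snrpn, Ube3a, Copg2, Grb10, Gnas, Peg10, Sgce and Dcn. The DHT gene body list held 3 of the 43 (6.98%), against 4.36% of all RefSeq genes. These were Slc22a2, a transporter of organic cations, Snrpn, which encodes a splicing protein, and Gnas, which encodes the stimulatory G protein alpha subunit that couples gonadotropin receptors to cyclic AMP. Thus 9 imprinted genes were listed in control alone (20.9%, against 9.37% of all RefSeq genes), 3 in both lists, 0 in the DHT list alone and 31 in neither. The DHT lists were shorter throughout the genome, with 3975 peaks against 16345 in control and 1142 genes against 3132. The part of this general difference in the 9 control-only entries was not tested.

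Of the imprinted genes listed in control, 25.0% were also listed after DHT, close to the 21.7% found over all 3132 control genes. A gene in both lists need not hold the same peak in both, as 4.12% of all control peaks overlapped a DHT peak. In the other direction, all 3 DHT-listed imprinted genes were also control genes, as were 59.5% of all 1142 DHT genes. Of all 26180 RefSeq genes, 4.36% were DHT genes, and 680 genes were in both lists. The share in the DHT list alone is thus below 4.36%, so few genes of any set of this size would be there. The listed genes were of both parental classes. The control list held 6 of the 22 genes known for expression from the maternal copy, 5 of the 20 paternal genes, and Gnas, whose transcripts differ in parental origin. The lists do not separate parental copies, so which copy carried a peak was not measured. Whether each gene is imprinted in granulosa cells was not measured either.

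**Figure D1:**
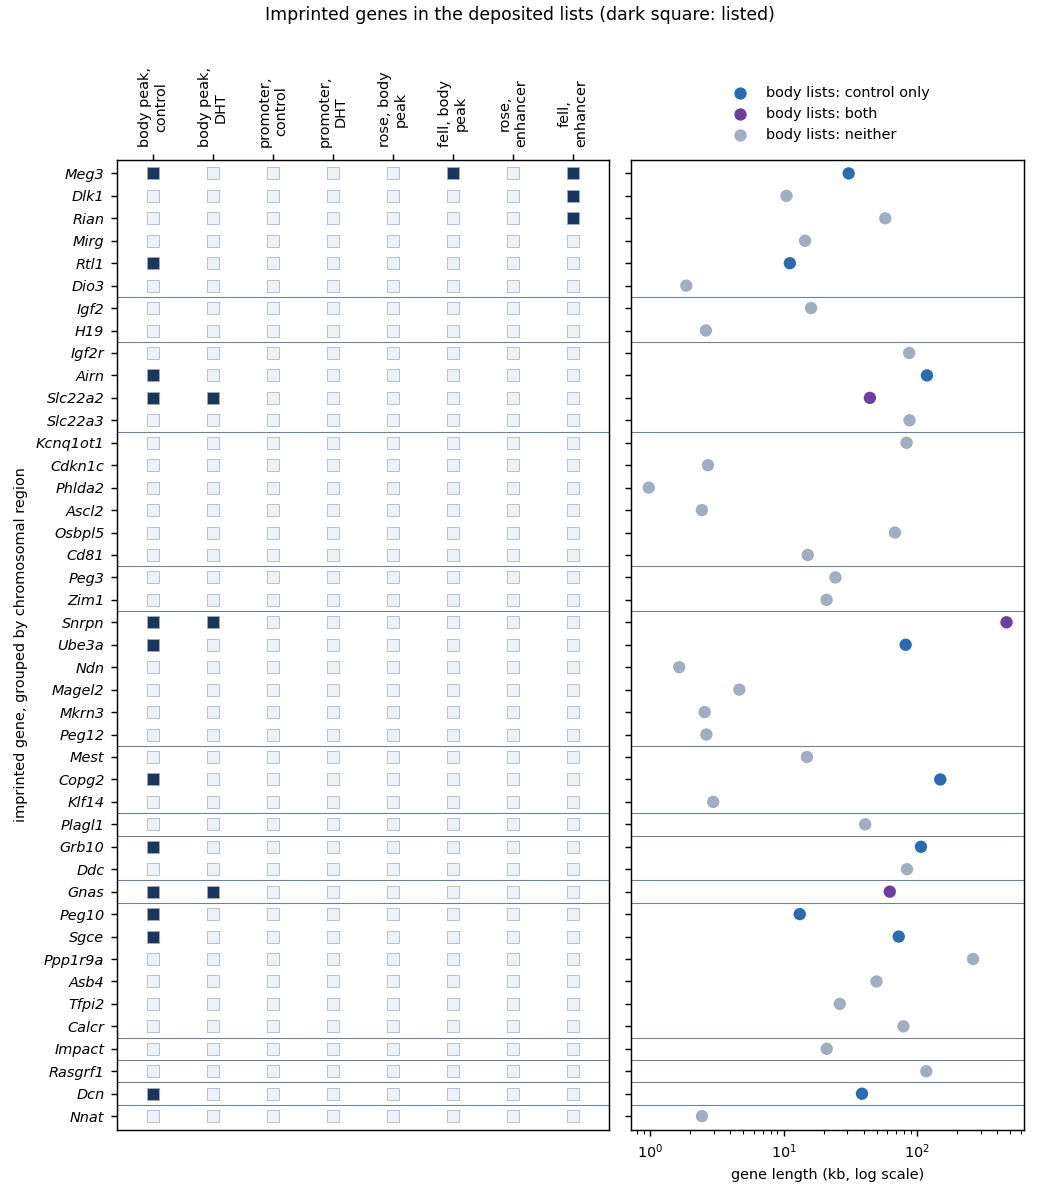
Rows are the 43 imprinted genes, grouped by chromosomal region. A dark square marks a gene in the list named at the top, and the right panel gives the gene length in kb on a log scale, with colour for the gene body lists. The 12 dark squares of the control body list include the 3 of the DHT body list, both promoter columns are empty, and the 3 genes of the last column lie in the Dlk1-Dio3 region.

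None of the 43 genes was in a promoter list. The study counted as promoter the 1 kb before and the 1 kb after a gene's start. By this definition 0 of 43 genes were listed in control and 0 of 43 after DHT. The same lists held 0.604% and 0.206% of all RefSeq genes, so few genes of any set of this size would be listed. By the authors' lists, the peaks that placed the 12 genes in the control body list thus did not reach within 1 kb of the annotated start of those genes.

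The Dlk1-Dio3 region on chromosome 12 contains Dlk1, a transmembrane ligand related to the Notch ligands, Rtl1, a protein gene derived from a retrotransposon, and Dio3, a deiodinase that inactivates thyroid hormone, all expressed from the paternal copy. From the maternal copy come the non-coding RNAs Meg3, Rian, which hosts small nucleolar RNAs, and Mirg, which hosts microRNAs. Among genes that fell in expression after DHT and were linked by the authors to an H3K27me3 enhancer, 33 in number, were Meg3, Dlk1 and Rian. This is 3 of 43 imprinted genes (6.98%), against 0.126% of all RefSeq genes. The other 14 regions had 0 genes of the set in this list. Meg3, Dlk1 and Rian lie in the same region, so their entries may not be separate events. Whether they share a linked enhancer was not tested. Meg3 and Rian are maternal RNAs, and Dlk1 is a paternal protein gene.

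Meg3 was also among the 15 genes that fell and had a gene body peak (0.0573% of all RefSeq genes), the only one of the 43 genes there. The deposited list is longer than the set described with the study, and how its symbols were chosen is not given in the sources used here. For its shorter set, the study reports a higher mark after DHT than in control. Whether Meg3 belongs to that set was not checked. The Meg3 body was listed in control and not after DHT, which as a listing is the opposite direction. Dlk1 and Rian were in neither body list. The lists of genes that rose after DHT held 0 of the 43 imprinted genes. This held for a gene body peak (22 genes, 0.084% of all RefSeq genes) and for an enhancer (66 symbols, of which 61 matched, 0.233%). The expression calls are the authors' and come from RNA-seq of separately pooled granulosa cells, not from the ChIP-seq dishes. The enhancers had been selected by a negative correlation of their H3K27me3 with expression across samples. An entry in the enhancer lists is therefore not an independent measurement of the mark. For genes that fell, such a selection favours enhancers with more of the mark after DHT. Genes that changed in expression without a body peak or a linked enhancer were not looked up.

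The sequences before the starts of these 3 genes are shown because these were the genes of the set found in the deposited lists of genes lower after DHT. Each run gives the 250 bases before the RefSeq start in GRCm38.p6, 5′ to 3′ on the transcribed strand, with CpG dinucleotides in capitals. All are on the plus strand of chromosome 12, at chr12:109540746-109540995 for Meg3, chr12:109452573-109452822 for Dlk1 and chr12:109603695-109603944 for Rian.
Meg3: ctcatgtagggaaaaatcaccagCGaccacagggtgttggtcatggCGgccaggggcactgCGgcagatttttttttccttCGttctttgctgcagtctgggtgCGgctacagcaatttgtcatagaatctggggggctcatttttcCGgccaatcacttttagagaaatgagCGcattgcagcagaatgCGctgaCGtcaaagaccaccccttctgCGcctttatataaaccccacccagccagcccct
Dlk1: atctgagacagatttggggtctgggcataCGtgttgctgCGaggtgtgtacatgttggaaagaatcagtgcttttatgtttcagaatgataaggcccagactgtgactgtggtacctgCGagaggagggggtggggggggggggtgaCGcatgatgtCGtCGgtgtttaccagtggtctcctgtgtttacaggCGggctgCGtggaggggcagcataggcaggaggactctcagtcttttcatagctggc
Rian: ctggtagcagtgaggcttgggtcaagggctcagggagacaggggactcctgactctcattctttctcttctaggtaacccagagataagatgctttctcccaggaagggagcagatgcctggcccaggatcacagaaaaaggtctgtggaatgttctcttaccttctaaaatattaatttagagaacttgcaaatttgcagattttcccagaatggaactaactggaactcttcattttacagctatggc

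The windows differed in CpG content. Meg3 held 10 CpG dinucleotides and Dlk1 held 8, near the median of 9 over 19528 RefSeq windows of the same length, and Rian held 0, as did 6.9% of all windows. Motifs were searched on both strands. The palindromic androgen response element, a pair of inverted AGAACA half-sites with 3 bases between them, was in 0 of the 35 imprinted genes with a window and in 1 of all windows (0.00512%). The shorter AGAACA, or TGTTCT on the other strand, was in Rian and not in Meg3 or Dlk1, and in 14.7% of all windows. The Meg3 window held the cyclic AMP response element TGACGTCA (2.0% of all windows) and the letters TATAAA, or TTTATA on the other strand (12.1% of all windows). These latter motifs were looked for after the Meg3 sequence had been read, and a match of letters is not a bound site. No H3K27me3 peak was listed at these starts in either group.

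Within the region the control marks fell on neighbouring genes. Meg3 and Rtl1 follow each other in gene order and were both listed in control alone. In GRCm38.p6 their curated transcripts are 17463 bp apart, and the widest control peak on chromosome 12 was 2326 bp, so that at this spacing the listings needed separate peaks. Rian begins 3614 bp beyond Rtl1 and was not listed, although at 57.8 kb it is longer than Meg3 (30.7 kb) and Rtl1 (11.1 kb). Mirg and Dio3 were in no list. Among the 10 other genes inside the region and the 10 nearest outside it, 0 were in either body list. The 22 microRNA genes that overlap Meg3, Rtl1, Rian or Mirg were not listed either, and over the whole genome 0 microRNA genes were listed in control and 1 was listed after DHT.

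**Figure D2:**
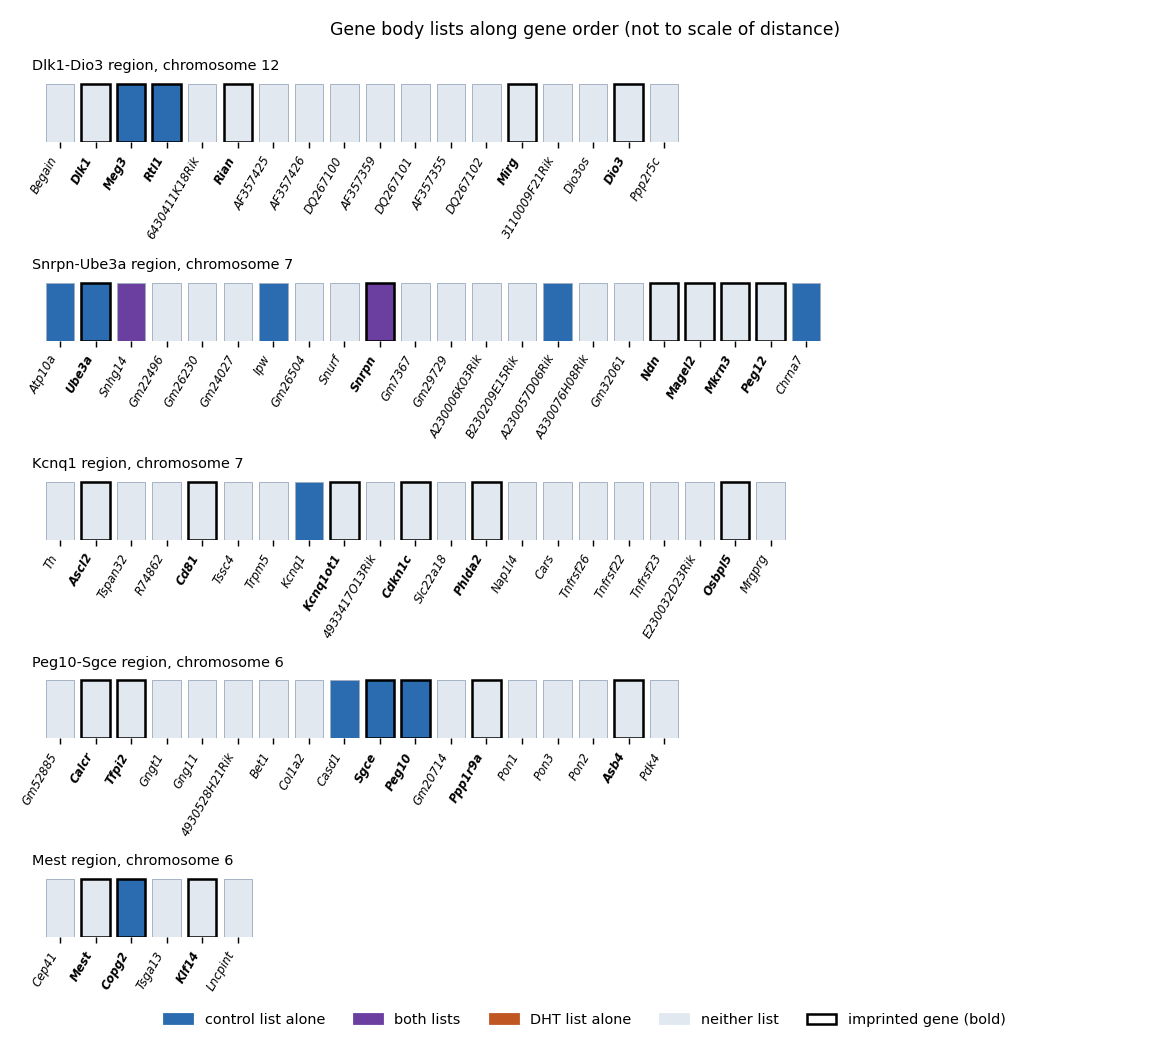
Each bar is a gene in RefSeq order along 5 imprinted regions, with 1 gene on either side and without microRNA genes; bar height has no meaning. Colour gives the gene body list and a black outline marks the imprinted genes. Meg3 and Rtl1 are adjacent and in control alone, as are Sgce and Peg10, and Kcnq1 is the only listed gene of its row.

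In the Igf2r-Airn region on chromosome 17, Airn was listed in control alone and Slc22a2 in both lists, while Igf2r and Slc22a3 were in neither. Airn is the long antisense RNA transcribed from the paternal copy across the start of Igf2r, the receptor that clears IGF2. It is known to silence Igf2r on that copy. In GRCm38.p6 Airn spans 118.6 kb and shares 28.4 kb with Igf2r. As Igf2r was not listed, the Airn peak lay in the 90.2 kb outside it. Mas1, which shares 21.0 kb with Airn, was listed in control alone, so that a peak in the shared part could account for both entries. Plg, next to Slc22a3, was also in the control list alone.

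In the Snrpn-Ube3a region on chromosome 7, whose human counterpart is affected in the Prader-Willi and Angelman syndromes, Snrpn was in both lists. Ube3a, a ubiquitin ligase expressed from the maternal copy in neurons, was in the control list alone. The intronless genes Ndn, Magel2, Mkrn3 and Peg12, each under 10 kb, were in neither. Snhg14, the long non-coding RNA that runs through this region, was in both lists and spans 1177.4 kb. It covers 467.7 kb of Snrpn, which is 100.0% of that gene, and 38.1 kb of Ube3a. Snrpn and Ube3a are 672 kb apart, whereas the widest control peak on chromosome 7 was 2739 bp. Snurf, which occupies 22.7 kb of the Snrpn span, was not listed, so that the Snrpn entries rest on its remaining length as RefSeq annotates it. A peak shared with Snhg14 could account for both entries. Among the nearest genes outside the region, Gabrg3 and Otud7a were in both lists, and Gabra5, Atp10a and Chrna7 were among those in control alone.

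On chromosome 6, Peg10 and Sgce were both listed in control alone. Peg10 is a protein gene derived from a retrotransposon and required for the placenta, Sgce encodes a sarcoglycan, and both are expressed from the paternal copy. Their starts face away from each other across 101 bp. A peak across this gap would lie within 1 kb of both starts, and neither gene was in a promoter list. Casd1, next to Sgce, was in the control list alone. The maternally expressed genes of the region, Ppp1r9a, Asb4, Tfpi2 and Calcr, were in neither list. Also on chromosome 6, Copg2, which encodes a coatomer subunit, was in control alone, whereas Mest, whose end it overlaps by 0.9 kb, and Klf14 were in neither list.

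Single genes were listed in further regions. Grb10, an adaptor that dampens insulin and IGF1 receptor signalling, was in the control list alone, and its neighbour Ddc, a decarboxylase of aromatic amino acids, was in neither. Dcn, which encodes the matrix proteoglycan decorin, was in control alone. Gnas, at 62.4 kb, was in both lists, and 0 of its 10 nearest genes were in either.

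In 7 of the 15 regions none of the 43 genes was listed, namely in H19-Igf2, Kcnq1, Peg3, Plagl1, Impact, Rasgrf1 and Nnat. Apart from Kcnq1, with 6 genes of the set, each of these regions held 1 or 2. As 3767 of all 26180 RefSeq genes were in any list, a region with so few genes would often have none listed. Other imprinted genes of these regions were listed, with Kcnq1 and Zim3, beside Peg3, in control alone and Usp29, also beside Peg3, in both lists. Igf2, the fetal growth factor, and H19, its non-coding neighbour, were in none of the lists. In the Kcnq1 region 0 of the 6 genes of the set were listed, among them Cdkn1c, an inhibitor of cyclin-dependent kinases, and Kcnq1ot1, the antisense RNA that silences the region on the paternal copy. Kcnq1 itself is a potassium channel gene of 319.8 kb. Since Kcnq1ot1 lies wholly inside it (83.4 kb) and was not listed, the Kcnq1 peak lay in the 236.4 kb outside.

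Listing followed gene length. The listed imprinted genes had a median length of 67.6 kb (n = 12) and the unlisted 16.0 kb (n = 31). Over all RefSeq genes the medians were 96.4 kb for control genes and 10.6 kb for others. None of the 11 imprinted genes under 10 kb was in the control list, where 1.0% of all genes of that length were. Between 10 and 30 kb, 2 of 11 were listed (5.68% of all genes), between 30 and 100 kb 6 of 15 (20.4%), between 100 and 200 kb 3 of 4 (49.7%) and over 200 kb 1 of 2 (82.2%). The genes listed at the shortest lengths were Rtl1 (11.1 kb) and Peg10 (13.2 kb). The longest unlisted genes were Ppp1r9a, which encodes the actin-binding protein neurabin (262.7 kb), and Rasgrf1, an exchange factor for Ras (117.2 kb). In the DHT list the counts were 0 of 11, 0 of 11, 2 of 15, 0 of 4 and 1 of 2, with 0.267%, 1.68%, 5.94%, 17.6% and 42.9% of all genes. The part of length in the listing of single imprinted genes was not tested.

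**Figure D3:**
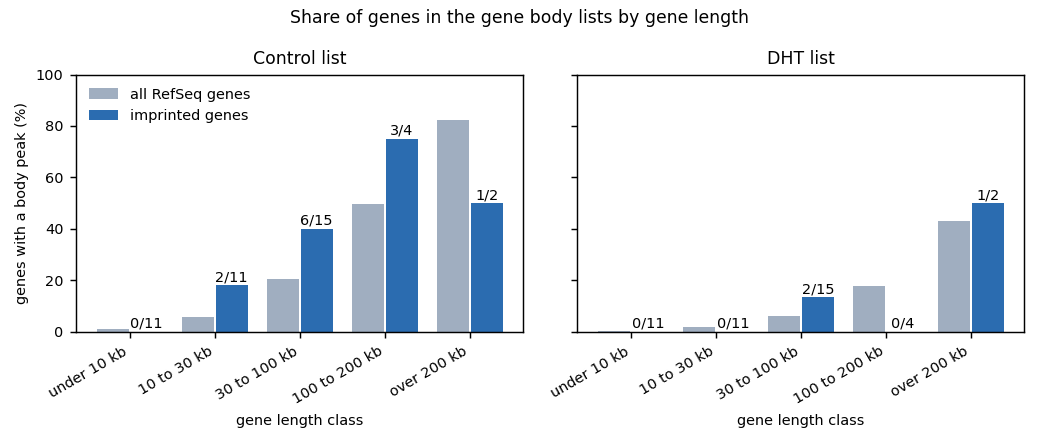
Bars give the percentage of listed genes in control (left) and after DHT (right) by class of gene length, grey for all RefSeq genes and blue for the imprinted genes, with the number listed over the number in the class. In control the imprinted genes go from 0 of 11 under 10 kb to 3 of 4 between 100 and 200 kb, and counts in the longest classes are small.

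The peaks themselves are in mm9 and were not placed in the imprinted regions, as gene positions in that assembly were not used here. Their values can be bounded by chromosome. The 12 control-listed genes lie on 7 chromosomes, which held from 561 control peaks on chromosome 17 to 1126 on chromosome 2, and from 135 to 257 DHT peaks. DHT peaks numbered 20.0% of control peaks on chromosome 6, where Copg2, Peg10 and Sgce lie, and 30.2% on chromosome 11, where Grb10 lies, with 24.3% in the whole genome. On chromosome 12 there were 698 control and 172 DHT peaks. Any control peak in Meg3 or Rtl1 therefore had a fold enrichment between 2.87 and 14.6, with a median of 3.45 over the chromosome. On chromosome 7, with Snrpn and Ube3a, control peaks ranged from 2.87-fold to 5.61-fold and DHT peaks from 3.4-fold to 6.22-fold, each against the background of its own pool. Of the control peaks on these 7 chromosomes, between 2.66% (chromosome 6) and 7.74% (chromosome 11) overlapped a DHT peak.

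Further genes were looked up for comparison. Of 42 other imprinted genes, 16 were control genes (38.1%) and 7 were DHT genes (16.7%), with a median length of 37.3 kb. All RefSeq genes gave 12.0% and 4.36%, and those between 30 and 100 kb gave 20.4% and 5.94%. Those in both lists were Usp29, Snhg14, Kcnk9, Zdbf2, Pde4d, Herc3 and Cobl, and those in control alone included Kcnq1, Zim3, Atp10a, Trappc9, Inpp5f and Plg. As with the 43 genes, 0 were in the DHT list alone and 0 in a promoter list, where few genes of any set of this size would be. In addition, 0 were in the deposited lists of changed genes with a body peak or a linked enhancer. Each of those lists held between 0.0573% and 0.233% of all RefSeq genes, so few genes of any set of this size would be there. Of 6 genes whose imprint rests on maternal H3K27me3 in the embryo, Gab1 and Slc38a4 were in control alone, Smoc1 in both lists, Sfmbt2 and Xist, the RNA that silences the X chromosome, in the DHT list alone, and Jade1 in neither. Hence each list held 3 of the 6, against 12.0% (control) and 4.36% (DHT) of all RefSeq genes. Their median length was 88.6 kb, and with 6 genes the shares are coarse.

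Of 21 genes that set or keep imprints, 3 were control genes (14.3%) and 2 were DHT genes (9.52%), against 12.0% and 4.36% of all RefSeq genes. Ezh2, the methyltransferase of the mark, and Smchd1, a chromatin protein required on the inactive X, were in control alone. Tet2, which oxidizes 5-methylcytosine, was in both lists, and Ehmt2, a methyltransferase of H3 lysine 9, was in the DHT list alone. The DNA methyltransferase genes, Ctcf, Zfp57 and Trim28 were in neither.

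Genes next to the imprinted regions were looked up as well. Of 147 such genes, the 5 nearest on each side of a region, 20.4% were in the control list and 8.84% were among the DHT genes, where all RefSeq genes gave 12.0% and 4.36%. No test of this difference was made. Some of these, such as Usp29, Atp10a and Cobl, are imprinted genes of the comparison list.

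**Figure D4:**
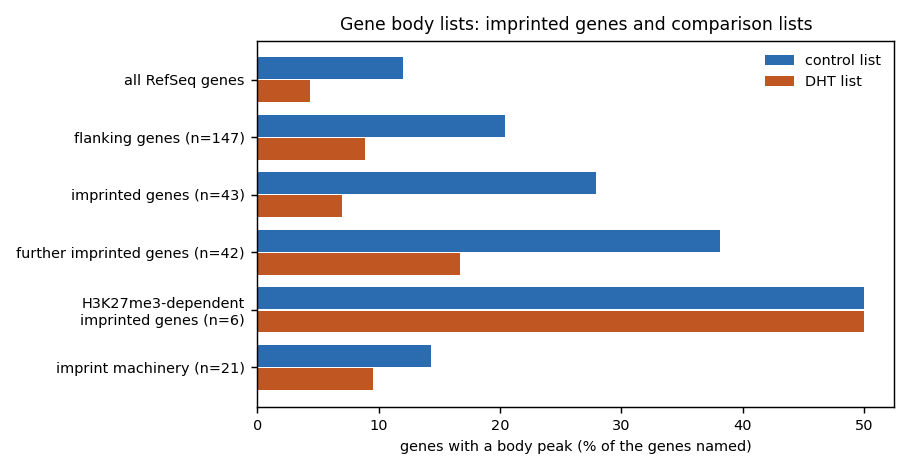
Bars give the percentage of each gene set listed in control (blue) and after DHT (orange), with the number of genes beside the name. Imprinted genes stand at 27.9% and 6.98%, and flanking genes at 20.4% and 8.84%, compared with 12.0% and 4.36% of all RefSeq genes; sets differ in gene length.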

How the data were processed

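H3K27me3 ChIP-seq was performed on 6 granulosa cell samples, 3 control and 3 DHT, grouped by the labelled agent. Per the study's methods the authors mapped reads to mm9 with Bowtie2 (version 2.3.4), kept unique reads and called broad peaks with MACS2 (version 2.1.1) with q-values up to 0.05. The deposited peak lists, 1 per pooled group, give a score, a fold enrichment (ratio) over local background, a −log10 p-value (not used) and a −log10 q-value. How replicates were combined, whether an input was used, and the annotation behind the gene lists are not given in the sources used here. The deposited gene lists hold symbols without values. Depth per sample is unknown.

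The imprinted genes and comparison lists were chosen with earlier results of these data known. Symbols were matched, through older names where needed, to the 26180 genes with a curated transcript in RefSeq GRCm38.p6. Of 3144 control and 1146 DHT body symbols, 3132 and 1142 matched. GRCm38.p6 supplied names, lengths over curated transcripts, gene order and promoter windows (250 bases before the start, the first listed per gene), and no peak was compared with it. Statements on where a peak lay in a gene assume that the authors' gene extents resemble these. Promoter windows were lacking for Rtl1, H19, Cdkn1c, Klf14, Peg10, Sgce, Impact and Dcn. Chromosome values were computed from the peak lists, with overlap of at least 1 bp. Every imprinted gene in any list was named, with its cluster and overlapping genes, and some neighbouring genes are not reported here. The lookup was tested on simulated lists. Lists were analysed in Python 3.11.15 with pandas 2.3.3.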

Additional observations from a re-analysis of the deposited data

How the results depend on the processing

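No paired analysis was possible because each group has 1 pooled list, with no value per replicate, and fits without each replicate could not be run for the same reason. Of 43 alternatives, 20 stayed within 1.5 times the reported value. The count of 12 control-listed imprinted genes was unchanged with exact symbols and became 10 without members that overlap another member. When each region was counted once it became 8 regions of 15, which is another unit and lies at the limit of that range. The count of 3 DHT-listed genes was 3 in each of these settings. The share in the DHT list moved from 6.98% to 11.8% when the other imprinted genes were added, which are different genes. The ratio of DHT to control peaks rose at stricter limits, on chromosome 12 from 24.6% to 42.2% with q-values up to 0.01 and 57.3% up to 0.001, and in the whole genome from 24.3% to 41.4% and 70.4%. The deposited gene lists exist at the q-value limit of 0.05 alone, so that control-only listing could not be recomputed at a stricter limit. Unknown depth limits every statement that a gene was not listed.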
